A study of Homo sapiens with 20 samples.

Results

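The genes described here encode parts of the machinery that brings secretory vesicles to the plasma membrane, namely the synaptotagmin-like proteins SYTL1, SYTL2, SYTL4 and SYTL5, the RAB GTPases RAB27A, RAB27B, RAB3B and RAB3D, the RAB27 effector MLPH and the vesicle SNARE VAMP8. SYTL2 was picked because its signal was far lower with the androgen dihydrotestosterone (DHT), and the other genes are relatives or partners by function. The 10 genes are a selection from 19775 genes with a probe set of their own on the array. They are read by 26 probe sets that name a single gene, and the brightest probe set over all arrays stands for each gene. Because SYTL2 was chosen on the DHT experiment, every value of that experiment is given below as a description without a test, and only the siRNA experiments are tested. The 10 genes were chosen with earlier results of these data known, so how many of them passed in the siRNA experiments is a description too.

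RNA of the human prostate cancer line LNCaP and of its castration-resistant derivative C42B was hybridized to 20 Affymetrix 3′ arrays. C42B cells carried siRNA against LSD1, the histone demethylase encoded by KDM1A (siLSD1, 3 arrays), or the control siNTC (3 arrays). They were transfected for 6 h and grown for 96 h in RPMI with 10% CSS, serum depleted of steroids. LNCaP cells carried siLSD1 (3 arrays) or siNTC (3 arrays) at 50 nM and grew for 96 h in RPMI with 10% FBS. For the androgen arrays, C42B cells were kept 72 h in RPMI with 10% CSS before 16 h with 100 nM DHT (4 arrays) or the same volume of ethanol vehicle (4 arrays). Each model is a single established cell line. The androgen replicates came from separate wells, each LNCaP replicate pooled 2 wells, and 6 wells gave 3 replicates for C42B siRNA, so p-values measure the spread between such samples. The labels name 1 siRNA against LSD1, so in any siLSD1 result effects of its sequence and of lower LSD1 cannot be told apart.

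RAB27 and RAB3 GTPases sit on secretory vesicles and lysosome-related organelles in their GTP-bound form and recruit effectors that move, tether and dock the vesicle. The synaptotagmin-like proteins bind RAB27 through an amino-terminal domain and membrane phospholipids through a pair of carboxy-terminal C2-type domains, which links the vesicle to the plasma membrane. SNARE proteins such as VAMP8 then drive fusion. Luminal prostate cells release prostate-specific antigen and acid phosphatase by this kind of exocytosis, and RAB27A with SYTL1 has been tied to that release in LNCaP cells.

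The deposited intensities were taken to the log2 scale, and their distributions separate by experiment, so levels are compared only within an experiment. KDM1A averaged 7.88 ± 0.12 with siLSD1 and 10.29 ± 0.08 with siNTC in C42B, and 7.30 ± 0.09 with siLSD1 and 10.08 ± 0.14 with siNTC in LNCaP (log2 intensity, SD, n = 3 each). KLK3, which encodes prostate-specific antigen, averaged 13.98 ± 0.05 with DHT and 11.24 ± 0.16 with vehicle (log2 intensity, SD, n = 4 each). All 6 measured luminal prostate markers (FOLH1, HOXB13, KLK3, KRT8, KRT18 and TMPRSS2) averaged 6 or more (log2) in all 6 groups, the level from which a group is called bright here. Of 11 measured markers of leukocyte, endothelial, fibroblast, basal and neuroendocrine cells, 4 stayed under 6 in every group, PTPRC among them at 3.51 to 4.16. COL1A1 (7.81 to 8.94), VWF (6.42 to 7.73) and PECAM1 (6.09 to 7.32) were bright in every group. The fibroblast collagen COL3A1 moved with the conditions, at 5.60 with DHT and 7.20 with vehicle, and at 6.13 with siLSD1 and 6.90 with siNTC in LNCaP. The other fibroblast markers did not follow it with DHT, with COL1A1 at 8.90 against 8.94 with vehicle, and DCN at 6.06 against 5.89. In LNCaP COL1A1 was at 7.90 with siLSD1 and 7.81 with siNTC, and DCN, dim there, at 5.51 and 5.66. The part of COL3A1 in the results below was not tested. In such bulk RNA, fewer cells of a kind and less RNA per cell cannot be told apart. The gap between the 3′ and 5′ actin control signals, which reads RNA integrity, overlapped between the groups of every experiment, for example at 1.17 to 1.31 (log2) in C42B siLSD1 arrays and 1.13 to 1.19 in C42B siNTC arrays.

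**Figure D1:**
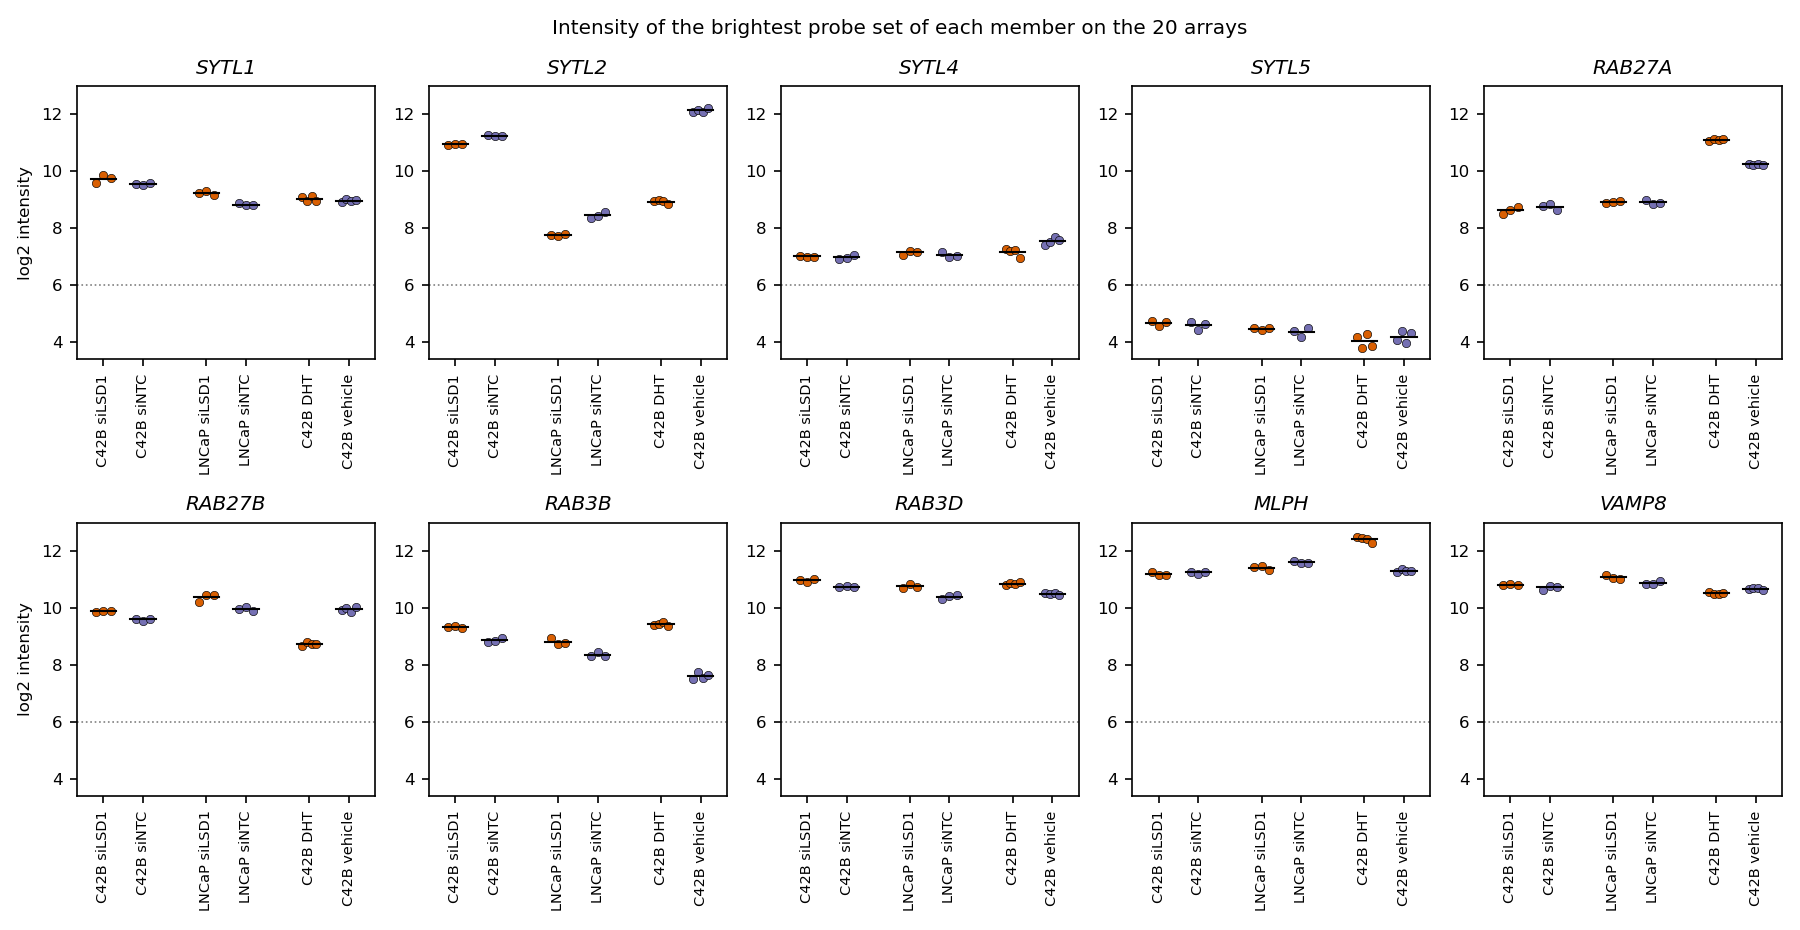
Log2 intensity of the brightest probe set of each of the 10 genes (y axis) on each array, with the 6 groups along the x axis. Each point is an array, the bar is the group mean and the dotted line marks 6, under which a group is called dim. SYTL2 lies between 8.87 and 8.99 with DHT and between 12.09 and 12.23 with vehicle, and SYTL5 stays under 6 in every group.

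SYTL2, also called SLP2A, tethers RAB27-bearing vesicles and in other epithelial cells takes part in apical secretion. With DHT its log2 intensity was 8.95, 8.99, 8.96 and 8.87, and with vehicle 12.09, 12.14, 12.10 and 12.23. Every DHT array lay far below every vehicle array. The group means were 8.94 ± 0.05 with DHT and 12.14 ± 0.06 with vehicle (SD, n = 4 each), a log2 difference of −3.20 ± 0.04 (SE), which leaves 10.9% of the vehicle signal. Of all 19775 genes, SYTL2 ranked 3 when they were ordered from the most negative difference. These values chose the gene and are no evidence for it.

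The other synaptotagmin-like genes did not share that difference. SYTL4, or granuphilin, known for docking insulin granules in pancreatic beta cells, read 7.29, 7.20, 7.24 and 6.98 with DHT against 7.42, 7.51, 7.70 and 7.58 with vehicle. Its groups did not overlap and differed by −0.38 ± 0.09 (log2, SE), but a slightly dimmer probe set of SYTL4 gave 0.09 ± 0.09 with overlapping groups, so no direction is given for SYTL4. SYTL1, also called JFC1, had 9.08, 8.96, 9.13 and 8.96 with DHT against 8.93, 9.02, 8.97 and 8.99 with vehicle. Those groups overlapped, with a difference of 0.06 ± 0.05 (log2, SE). SYTL5 was dim in all groups, at 3.78 to 4.30 with DHT and 3.96 to 4.39 with vehicle, and no fold is given.

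The RAB genes separated in both directions. RAB3B, a GTPase of regulated secretion, showed the highest positive difference of the 10 genes. Its log2 intensity was 9.39, 9.45, 9.51 and 9.38 with DHT against 7.51, 7.75, 7.55 and 7.64 with vehicle. All DHT arrays lay above all vehicle arrays, and the difference of 1.82 ± 0.06 (log2, SE) is a ratio of 3.53. RAB27A, which is mutated in Griscelli syndrome and serves lytic granules and melanosomes, read 11.09, 11.15, 11.12 and 11.13 with DHT against 10.26, 10.23, 10.26 and 10.23 with vehicle. The arrays were again separate, by 0.87 ± 0.02 (log2, SE). Its close paralog RAB27B had the opposite sign, with 8.66, 8.81, 8.74 and 8.72 under DHT against 9.92, 9.99, 9.85 and 10.02 under vehicle. The difference of −1.22 ± 0.05 (log2, SE) leaves 43.1% of the vehicle signal. RAB3D, found on zymogen granules of exocrine cells, read 10.81, 10.87, 10.84 and 10.90 with DHT against 10.54, 10.48, 10.53 and 10.44 with vehicle. Its DHT arrays were all higher, by 0.35 ± 0.03 (log2, SE).

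MLPH, or melanophilin, joins RAB27A to the motor myosin Va in melanosome transport. It had 12.50, 12.44, 12.40 and 12.29 with DHT against 11.26, 11.38, 11.29 and 11.28 with vehicle. All DHT arrays were higher, and the difference of 1.10 ± 0.05 (log2, SE) is a ratio of 2.15. VAMP8, also called endobrevin, which drives granule fusion in exocrine cells, had 10.57, 10.48, 10.50 and 10.51 with DHT against 10.67, 10.71, 10.70 and 10.63 with vehicle. Its DHT arrays were all lower by a small margin (−0.16 ± 0.03, log2, SE).

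In all, 4 of the 10 genes lay above the vehicle range on every DHT array (RAB3B, MLPH, RAB27A and RAB3D) and 4 lay below it (SYTL2, RAB27B, VAMP8 and, at its brightest probe set only, SYTL4), while SYTL1 and SYTL5 overlapped. Over all genes, 34.6% had groups that did not overlap, 14% higher and 20.6% lower with DHT. The log2 difference reached 1 in either direction for 4 of the 10 genes (SYTL2, RAB3B, RAB27B and MLPH), against 2.33% of all genes. The selection used this experiment, so nothing is read from these shares. The median difference of the 10 genes was −0.05, beside 0.01 over all genes (log2).

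Promoter windows of RAB3B, RAB27B, MLPH and RAB27A, which had the largest DHT differences of the 10 genes after SYTL2, are shown so that the sequence around their start sites can be read beside these values. The RefSeq table (GRCh38.p14) holds 17 windows for 9 of the 10 genes, SYTL2 being the other, each with 250 bases before and 50 after a start site. They were searched on both strands for AGAACA, the hexamer that makes up an androgen response element, whose reverse complement is TGTTCT. It occurred in 4 of the 17 windows and in 14.8% of 35116 windows of the same length. The full element, that hexamer as an inverted repeat around 3 spacer bases, occurred in 0 of the 17 and in 1 of the 35116. The windows printed are the only one of RAB3B, which lacks the hexamer, and for MLPH, RAB27A and RAB27B the one that holds it, in capitals. It begins at base 141 of the window in MLPH, at base 41 in RAB27A (as TGTTCT) and at base 15 in RAB27B. The remaining window with the hexamer, not printed, is one of SYTL5 (base 286, as TGTTCT), which was dim in all groups and overlapped with DHT. The printed windows were picked for holding the hexamer, so they do not tie it to the DHT differences. MLPH, RAB27A and RAB27B have further windows without the hexamer, and which start sites these cells use was not measured. A match is a description of the letters and marks no binding site.
RAB3B, chr1:51990651-51990950, minus strand: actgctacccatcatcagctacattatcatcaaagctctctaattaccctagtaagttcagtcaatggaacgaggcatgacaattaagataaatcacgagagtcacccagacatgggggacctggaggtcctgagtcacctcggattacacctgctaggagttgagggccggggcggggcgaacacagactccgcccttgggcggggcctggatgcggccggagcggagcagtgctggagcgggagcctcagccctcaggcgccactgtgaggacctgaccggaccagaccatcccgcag
MLPH, chr2:237486160-237486459, plus strand: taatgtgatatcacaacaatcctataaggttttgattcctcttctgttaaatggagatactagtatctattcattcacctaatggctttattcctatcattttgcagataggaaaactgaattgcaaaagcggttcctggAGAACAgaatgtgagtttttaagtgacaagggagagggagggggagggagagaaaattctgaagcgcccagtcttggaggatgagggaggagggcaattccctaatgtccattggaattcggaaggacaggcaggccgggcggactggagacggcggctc
RAB27A, chr15:55270350-55270649, minus strand: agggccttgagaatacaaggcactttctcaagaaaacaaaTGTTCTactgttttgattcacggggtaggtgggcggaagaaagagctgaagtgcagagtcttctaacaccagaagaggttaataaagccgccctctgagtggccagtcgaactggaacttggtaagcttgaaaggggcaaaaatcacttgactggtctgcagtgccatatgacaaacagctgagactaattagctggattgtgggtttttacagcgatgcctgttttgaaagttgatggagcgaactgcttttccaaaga
RAB27B, chr18:54828227-54828526, plus strand: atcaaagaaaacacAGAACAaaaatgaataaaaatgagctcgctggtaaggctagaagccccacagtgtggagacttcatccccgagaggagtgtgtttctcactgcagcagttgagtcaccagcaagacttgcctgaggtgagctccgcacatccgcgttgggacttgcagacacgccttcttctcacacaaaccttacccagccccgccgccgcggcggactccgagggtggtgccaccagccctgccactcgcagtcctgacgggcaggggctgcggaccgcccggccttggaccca

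The C42B siRNA arrays address which of these genes respond to siLSD1 in steroid-depleted medium. SYTL2 fell and RAB3B, RAB27B and RAB3D rose, the last 3 by at most 1.38-fold. SYTL2 read 10.94, 10.97 and 10.95 with siLSD1 against 11.28, 11.25 and 11.24 with siNTC. The groups were separate, and SYTL2 fell by 0.30 ± 0.05 on the log2 scale (SE, n = 3 each, limma adjusted p = 0.0047). RAB3B had 9.33, 9.35 and 9.31 with siLSD1 against 8.81, 8.82 and 8.94 with siNTC. All siLSD1 arrays were higher, by 0.47 ± 0.05 (log2, SE, limma adjusted p = 0.0017), the largest change among the 10 genes in C42B. RAB27B had 9.86, 9.89 and 9.89 with siLSD1 against 9.61, 9.55 and 9.62 with siNTC, a rise of 0.29 ± 0.05 (log2, SE, limma adjusted p = 0.0071).

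RAB3D read 10.98, 10.92 and 11.02 with siLSD1 against 10.73, 10.77 and 10.73 with siNTC. Its groups did not overlap, and the rise of 0.23 ± 0.05 (log2, SE) passed at a limma adjusted p = 0.018. That call ended without siLSD1 replicate 3 (0.21, adjusted p = 0.080), without siNTC replicate 1 (0.22, adjusted p = 0.060) and without siNTC replicate 3 (0.22, adjusted p = 0.059), within a range of adjusted p = 0.0010 to 0.45 over 13 alternatives. With the replicate number as a block it had adjusted p = 0.053. SYTL1 lay higher on all siLSD1 arrays, at 9.60, 9.86 and 9.75 against 9.56, 9.51 and 9.59 with siNTC, but did not pass (0.18 ± 0.07, log2, SE, limma adjusted p = 0.13). Without siLSD1 replicate 1 it passed (0.25, adjusted p = 0.030, with adjusted p = 0.030 to 0.35 over 13 alternatives). SYTL4 (0.03), MLPH (−0.06), VAMP8 (0.10) and RAB27A (−0.12), all log2 differences, did not pass, nor did SYTL5, which was dim in both groups.

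Of the 10 genes, 3 passed higher and 1 lower in C42B. Over all 19775 genes 18% passed, 8.66% higher and 9.39% lower. When only genes bright in either group were fitted, 4353 of 13905 passed, and of the 10 genes 9 were bright and 4 passed. The median log2 change was 0.10 for the 10 genes and −0.02 for all genes.

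In LNCaP the same question was put in medium with FBS. SYTL2 fell and RAB3B, RAB27B, SYTL1 and RAB3D rose. SYTL2 had 7.76, 7.73 and 7.81 with siLSD1 against 8.36, 8.44 and 8.56 with siNTC. Its siLSD1 arrays were all lower, and SYTL2 fell by 0.69 ± 0.07 on the log2 scale (SE, n = 3 each, limma adjusted p = 1.9e-04), to 62.1% of the siNTC signal. RAB3B had 8.95, 8.74 and 8.76 with siLSD1 against 8.30, 8.44 and 8.33 with siNTC, separate groups with a rise of 0.46 ± 0.08 (log2, SE, limma adjusted p = 0.0026). RAB27B read 10.21, 10.45 and 10.47 with siLSD1 against 9.95, 10.05 and 9.90 with siNTC. It rose by 0.41 ± 0.08 (log2, SE, limma adjusted p = 0.0070).

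SYTL1, the RAB27A partner tied to release of prostate proteins, had 9.22, 9.30 and 9.15 with siLSD1 against 8.88, 8.82 and 8.81 with siNTC. The groups were separate and it rose by 0.39 ± 0.06 (log2, SE, limma adjusted p = 0.0021). RAB3D read 10.70, 10.83 and 10.73 with siLSD1 against 10.30, 10.43 and 10.47 with siNTC, a rise of 0.35 ± 0.07 (log2, SE, limma adjusted p = 0.0060). MLPH had 11.43, 11.46 and 11.34 with siLSD1 against 11.66, 11.56 and 11.59 with siNTC. Its groups were separate and the change of −0.20 ± 0.06 (log2, SE) passed narrowly (limma adjusted p = 0.047), but the call ended without any one of the 6 arrays (adjusted p = 0.068 to 0.16), with quantile normalization (adjusted p = 0.099) and with the replicate block (adjusted p = 0.073), within adjusted p = 0.0076 to 0.16 over 13 alternatives. The change of MLPH ranged from −0.22 to −0.16 over those 6 fits. VAMP8 was higher on all siLSD1 arrays, at 11.17, 11.04 and 11.03 against 10.85, 10.82 and 10.95 with siNTC, and stood just outside the threshold (0.20 ± 0.07, log2, SE, limma adjusted p = 0.055). SYTL4 (0.09) and RAB27A (0.02), both log2 differences, and SYTL5, dim in both groups, did not pass.

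In LNCaP 4 of the 10 genes passed higher and 2 lower, where 25.9% of all genes passed, 13.4% higher and 12.5% lower. With only genes bright in either group fitted, 5525 of 12782 passed, and of the 10 genes 9 were bright and 7 passed. The median log2 change was 0.16 for the 10 genes and 0.01 for all genes. At their brightest probe sets RAB3B, RAB27B and RAB3D passed higher in both lines, against 5.29% of all genes, and SYTL2 passed lower in both, against 5.64%. The lines have their own control arrays, so these calls share no sample. When probe sets were averaged, RAB27B passed in neither line and RAB3D in LNCaP only.

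The change of SYTL2 with siLSD1 was smaller in C42B than in LNCaP. The C42B minus LNCaP difference of the changes was 0.38 ± 0.08 on the log2 scale (SE, 12 arrays, limma adjusted p = 0.0081), and it passed without any one of the 12 arrays, but not when the probe sets of each gene were averaged (0.17, adjusted p = 0.16, within adjusted p = 0.0015 to 0.16 over 19 alternatives). It was the 1 of the 10 genes that passed this test, where 11.6% of all genes did (5.56% higher and 6.07% lower), and the other 9 had differences from −0.21 to 0.14. For RAB3B the changes in the lines differed by 0.01 ± 0.09 (log2, SE, adjusted p = 0.97). Line, serum and experiment change together in this contrast and cannot be told apart. KDM1A itself changed by −2.40 in C42B and −2.78 in LNCaP (log2), a difference of 0.37 ± 0.12 (SE, limma adjusted p = 0.063). The part of that knockdown depth in the SYTL2 difference was not tested. The siNTC level of SYTL2 was 11.26 ± 0.02 in C42B and 8.45 ± 0.10 in LNCaP (log2, SD, n = 3 each), given side by side because the experiments appear to have been normalized separately.

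Set side by side, the 3 experiments placed these genes in different patterns. SYTL2 had a negative difference with DHT and fell with siLSD1 in both lines, and RAB3B had a positive difference with DHT and rose with siLSD1 in both. RAB3D, at its brightest probe set, was higher with DHT and with siLSD1 in both lines, but its C42B call held in only 8 of 13 alternatives. RAB27B, at its brightest probe set, went opposite ways, lower on every DHT array but risen with siLSD1. Its siLSD1 rises no longer passed in either line when its probe sets were averaged. MLPH was higher on every DHT array, did not pass in C42B siLSD1 and passed lower in LNCaP only as described above.

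**Figure D2:**
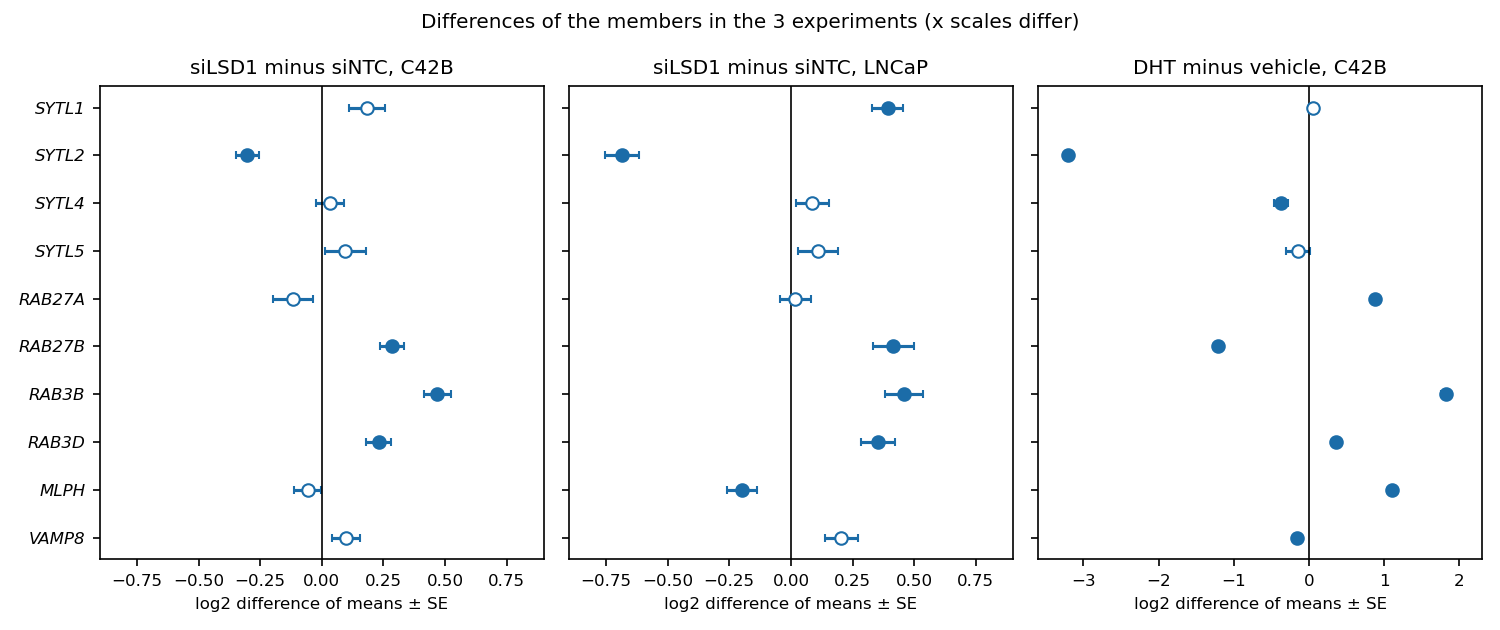
Log2 difference of group means ± SE (x axis, scales differ) for each of the 10 genes (y axis) in C42B siLSD1 against siNTC, LNCaP siLSD1 against siNTC and C42B DHT against vehicle. Filled points passed limma at an adjusted p under 0.05 in the siRNA panels and had separate arrays in the DHT panel, which carries no test. SYTL2 is at −0.30, −0.69 and −3.20 and RAB3B at 0.47, 0.46 and 1.82 in the 3 panels.

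The other probe sets were read as a check, with p-values adjusted over all probe sets that name 1 gene. All 3 probe sets of SYTL2 were lower on every DHT array, by log2 differences of −3.20 and −3.32 at the bright ones. The dimmest averaged 4.78 with DHT and 7.18 with vehicle, lower by at least 1.18 when counted down to 6. All 3 passed lower with siLSD1 in C42B, at −0.30 and −0.31 for the bright ones, while the dimmest averaged 5.64 with siLSD1 and 6.18 with siNTC, a fall of at least 0.18 counted down to 6. They passed lower in LNCaP too, between −0.69 and −0.37, the smallest being a probe set dim in both LNCaP groups. The difference between the lines passed for both bright probe sets (0.38, limma adjusted p = 0.015, and 0.30, limma adjusted p = 0.037) and had the other sign at the dimmest (−0.17, limma adjusted p = 0.48). The 5 probe sets of RAB3B were all higher on every DHT array, by 1.45 to 1.90 for the 4 bright in both groups and by at least 1.05, counted up from 6, for the dimmest (7.05 with DHT and 5.10 with vehicle). With siLSD1 they were positive in both lines, and 4 passed in C42B and 3 in LNCaP.

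RAB27A was read by 5 probe sets, and these disagreed with siLSD1. In C42B, the probe set next in brightness to the one used fell by 0.26 ± 0.07 (log2, SE, limma adjusted p = 0.038), while the third in brightness rose by 0.26 ± 0.06 (log2, SE, limma adjusted p = 0.024). The other 3 did not pass there, with 2 positive at 0.26 and 0.42 and the brightest negative at −0.12. In LNCaP 3 probe sets rose, by 0.41 to 0.46, and the other 2 stood at 0.02 and 0.03 without passing. Averaged over its probe sets, RAB27A did not pass in C42B (0.11, limma adjusted p = 0.32) and passed in LNCaP (0.27, limma adjusted p = 0.0062). No direction is given for RAB27A with siLSD1. With DHT all 5 were higher on every array, by 0.57 to 0.93. Whether the probe sets of RAB27A read different transcript ends was not tested.

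RAB27B and RAB3D rest mainly on 1 probe set each. The other RAB27B probe sets were dim in the siRNA experiments and did not pass, with log2 differences of 0.04 and 0.09 in C42B and −0.14 and −0.08 in LNCaP. With DHT one of them was lower on every array (−0.86, dim in both groups) and the other overlapped (−0.26). The dimmer probe set of RAB3D was higher with DHT by 0.34 but did not pass with siLSD1 (−0.08 in C42B and 0.07 in LNCaP). When the mean of all probe sets stood for a gene, RAB27B (0.14, limma adjusted p = 0.23) and RAB3D (0.07, limma adjusted p = 0.45) no longer passed in C42B, and RAB27B no longer passed in LNCaP (0.06, limma adjusted p = 0.63). For SYTL4, a probe set dim in both groups passed higher in LNCaP (0.44, limma adjusted p = 0.019), as did the mean of its probe sets (0.22, limma adjusted p = 0.041). SYTL1, MLPH and VAMP8 have 1 probe set each and no such check.

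**Figure D3:**
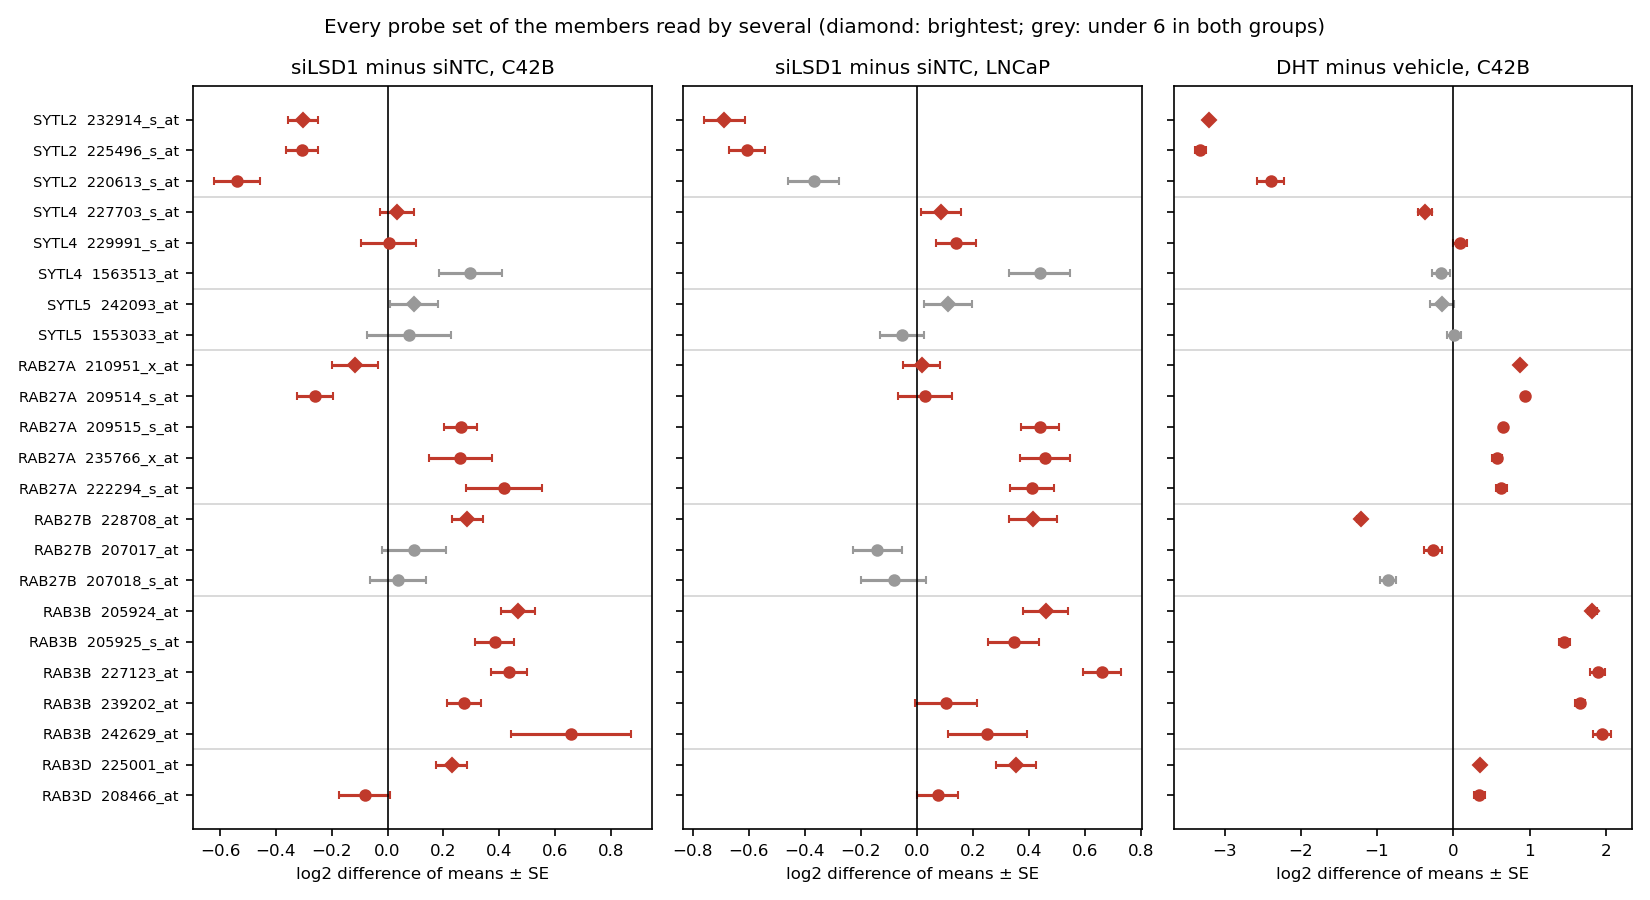
Log2 difference of group means ± SE (x axis, scales differ) for each probe set (y axis) of the genes with several, in C42B siLSD1 against siNTC, LNCaP siLSD1 against siNTC and C42B DHT against vehicle. Diamonds mark the brightest probe set and grey points those under 6 on the log2 scale in both groups, and where 1 group is under 6 the difference is drawn as measured. The RAB27A probe sets run from −0.26 to 0.42 with siLSD1 in C42B, and from 0.57 to 0.93 with DHT.

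Other genes of the same machinery moved in part. In each list below at most 1 gene was dim in both groups of an experiment, so the shares over all genes, many of them dim, are a low yardstick. When only genes bright in either group were fitted, 4353 of 13905 passed in C42B and 5525 of 12782 in LNCaP. The genes of these lists were not checked at other probe sets or under the alternatives. Among 9 further RAB27 and RAB3 effectors, 1 rose and 1 fell with siLSD1 in C42B, and 1 rose in LNCaP, where 18% of all genes passed in C42B and 25.9% in LNCaP. RPH3AL, a RAB effector of exocytosis also called NOC2, rose by 0.29 ± 0.05 in C42B and 0.50 ± 0.07 in LNCaP (log2, SE, limma adjusted p = 0.010 and 0.0010). RIMS1, an active-zone scaffold that binds RAB3, fell by 0.56 ± 0.06 in C42B (log2, SE, limma adjusted p = 0.0016). With DHT, 4 of the 9 were lower on every array, as were 20.6% of all genes, led by MYRIP, a relative of MLPH that links RAB27A to myosin (9.86 with DHT and 11.20 with vehicle, difference −1.33 ± 0.06), and RIMS1 (9.16 with DHT and 10.38 with vehicle, difference −1.22 ± 0.02, log2, SE). The medians of the 9 were 0.04 in C42B, 0.11 in LNCaP and 0.01 with DHT (log2).

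Of 10 other secretory RAB GTPases, 2 passed higher and 2 lower in C42B, and 4 higher and 1 lower in LNCaP, beside 18% and 25.9% of all genes. RAB26, a GTPase of granule maturation, rose in both lines, by 0.44 ± 0.05 in C42B and 0.83 ± 0.06 in LNCaP (log2, SE, limma adjusted p = 0.0017 and 3.2e-05), and its changes differed between the lines (−0.39 ± 0.07, C42B minus LNCaP, limma adjusted p = 0.0042). RAB3A, the synaptic vesicle relative of RAB3B, rose in LNCaP by 0.63 ± 0.06 (log2, SE, limma adjusted p = 1.8e-04), with a difference between the lines of −0.51 ± 0.08 (limma adjusted p = 0.0015). RAB37, a RAB of secretory granules, rose by 0.59 ± 0.10 in LNCaP (log2, SE, limma adjusted p = 0.0033). In C42B RAB10 rose by 0.25 ± 0.05 and RAB8B fell by 0.23 ± 0.06 (log2, SE, limma adjusted p = 0.017 and 0.032). With DHT, 2 of the 10 were higher and 5 lower on every array (14% and 20.6% of all genes), among them RAB10 (−0.30 ± 0.05, log2, SE) and RAB37, lower by at least 0.12 counted down to 6. The medians were 0.09 in C42B, 0.14 in LNCaP and −0.14 with DHT (log2).

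Among 11 measured regulators of RAB proteins, 1 passed higher and 2 lower in C42B, and 3 higher and 2 lower in LNCaP, beside 18% and 25.9% of all genes. CHML, an escort protein for RAB prenylation, fell by 0.51 ± 0.05 in C42B and by 0.78 ± 0.10 in LNCaP (log2, SE, limma adjusted p = 0.0012 and 6.7e-04). CHML was also lower on every DHT array, at 9.70 with DHT and 10.33 with vehicle. MADD, the exchange factor that loads RAB3 and RAB27 with GTP, rose by 0.39 ± 0.06 in LNCaP (log2, SE, limma adjusted p = 0.0013), and its change differed from that in C42B by −0.43 ± 0.07 (limma adjusted p = 0.0026). RABGGTA, a subunit of the enzyme that prenylates RAB proteins, rose by 0.33 ± 0.07 in LNCaP (log2, SE, limma adjusted p = 0.011). The medians were −0.02 in C42B, 0.09 in LNCaP and 0.04 with DHT (log2), and 4 were higher and 2 lower on every DHT array, where 34.6% of all genes were separate.

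Of 15 measured SNAREs and SNARE binders, 5 passed higher and 2 lower in C42B, and 2 higher and 1 lower in LNCaP, beside 18% and 25.9% of all genes. STX19, an epithelial syntaxin, rose by 1.00 ± 0.11 in C42B (log2, SE, limma adjusted p = 0.0014), and its change differed from that in LNCaP by 0.87 ± 0.14 (limma adjusted p = 0.0021). SNAP23, the SNARE of the plasma membrane in non-neuronal cells, rose by 0.44 ± 0.07 in C42B and 0.39 ± 0.06 in LNCaP (log2, SE, limma adjusted p = 0.0053 and 0.0023). VAMP2, a vesicle SNARE, rose by 0.44 ± 0.06 in C42B and 0.88 ± 0.06 in LNCaP (log2, SE, limma adjusted p = 0.0038 and 4.0e-05), and its relative VAMP3 fell by 0.43 ± 0.05 in LNCaP (limma adjusted p = 6.7e-04). With DHT 1 was higher and 4 were lower on every array (34.6% of all genes were separate), led by VAMP1 (−0.46 ± 0.08) and STX19 (−0.30 ± 0.05, log2, SE). The medians were 0.11 in C42B, −3.98e-05 in LNCaP and −0.02 with DHT (log2).

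The exocyst, the complex of 8 proteins that tethers vesicles to the plasma membrane, had 1 gene higher and 1 lower in C42B and 2 higher in LNCaP, beside 18% and 25.9% of all genes. EXOC2 rose by 0.50 ± 0.06 in LNCaP (log2, SE, limma adjusted p = 4.4e-04), and the lines differed by −0.49 ± 0.10 (limma adjusted p = 0.0071). EXOC7 rose by 0.23 ± 0.05 and EXOC3 fell by 0.27 ± 0.06 in C42B (log2, SE, limma adjusted p = 0.015 and 0.026). With DHT 1 was higher and 3 were lower on every array, beside 34.6% of all genes with separate arrays, led by EXOC2 (−0.35 ± 0.05) and EXOC1 (−0.33 ± 0.04, log2, SE). The medians were 0.02 in C42B, 0.13 in LNCaP and −0.10 with DHT (log2).

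**Figure D4:**
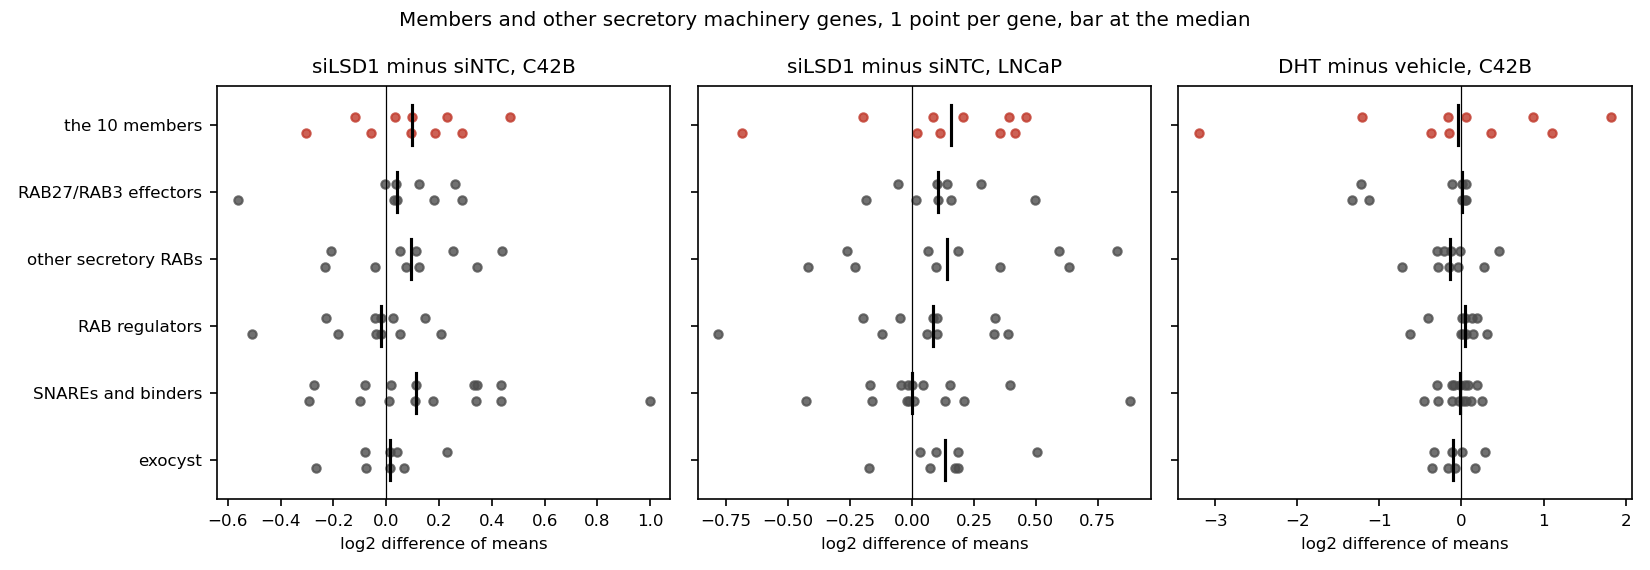
Log2 difference of group means (x axis, scales differ) of the 10 genes (red) and of 5 groups of other secretory machinery genes (grey, y axis), with 1 point per gene and a bar at the median, in the 3 experiments. With DHT the 10 genes run from −3.20 to 1.82, and the lowest of the other genes, MYRIP, is at −1.33.

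The genes whose values followed those of SYTL2 most closely were sought by Pearson's r over the 20 arrays, after the mean of each experiment was subtracted, among 14716 other genes bright in at least 1 group. They were ST3GAL1, a sialyltransferase (r = 0.996), the transcription factor OSR2 (0.995), KLHL1 (0.989), the lysophospholipid acyltransferase LPCAT4 (0.989) and FAM217B (0.988). Their differences with DHT were −1.03, −2.28, −1.82, −1.20 and −1.36 (log2). With siLSD1 they were smaller, from −0.24 to −0.10 in C42B and from −0.51 to −0.22 in LNCaP. The DHT values that picked SYTL2 enter every r given here, and r without the DHT arrays was not computed. Among the 10 genes themselves, each at its brightest probe set only, r with SYTL2 was 0.85 for RAB27B, 0.76 for SYTL4, 0.40 for VAMP8 and 0.26 for SYTL5. SYTL5 was dim in all groups, and the r of SYTL4 gives no direction, since another of its probe sets overlapped with DHT. It was −0.98 for RAB3B, −0.95 for RAB27A, −0.92 for MLPH, −0.79 for RAB3D and −0.31 for SYTL1. RAB27B had its positive r although its brightest probe set rose with siLSD1 in both lines, where SYTL2 fell. All these r values describe the arrays and carry no test.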

How the data were processed

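Gene expression was measured on 20 Affymetrix 3′ arrays. The deposited intensity values, 1 per probe set, were made by the authors using RMA (affy), as named per the submitters' processing notes. The tool versions were not given in the sources used here. Deposited intensities run on a linear scale from 4.34 to 36333, with array medians of 63.3 to 86.1, and log2 was taken of each. No pair of arrays held identical values.

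Of 54675 probe sets 41091 name exactly 1 gene in the platform annotation, 1801 several and 11721 none, beside 62 controls. The brightest stood for each of 19775 genes, and no dim gene was removed. The arrays of each siRNA experiment were fitted alone in limma (version 3.58.1, R version 4.3.3; lmFit, eBayes), two-sided, with Benjamini-Hochberg adjustment over all genes and a threshold of 0.05. The difference between the lines is a contrast over 12 arrays. DHT values are differences of means with SE from the pooled SD. A gene with 1 group under 6 is given as a bound counted from 6. The siRNA fits were also run on simulated data with independent noise between arrays. That setting does not cover arrays from related wells, and no result here rests on it. Figures used matplotlib 3.10.9 in Python 3.11.15.

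The members and the lists were chosen with earlier results of these data known. The text names every member, up to 3 passing genes per list and siRNA contrast (up to 2 with separate arrays for DHT), the 5 genes most like SYTL2, and KDM1A and KLK3 as checks. Some genes of the lists are not reported here. Deviations from the group mean correlated at −0.096 to 0.20 between arrays that share a replicate number. With so few arrays per group this cannot exclude a pairing. The main fits treat the arrays as unpaired, and the replicate block is given as an alternative. The number of arrays limits the precision.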

Additional observations from a re-analysis of the deposited data

Results flagged for a closer look

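The change of SYTL2 with siLSD1 was tested for a difference between the lines and passed, at 0.38 ± 0.08 on the log2 scale (SE, C42B minus LNCaP, 12 arrays, limma adjusted p = 0.0081). It did not pass when probe sets were averaged (0.17, limma adjusted p = 0.16), and its sign turned at the dimmest probe set (−0.17, limma adjusted p = 0.48). Line, serum and experiment cannot be told apart in this difference. SYTL2 was lower on every siLSD1 array than on any siNTC array of the same line, by 0.30 in C42B and by 0.69 in LNCaP. No array stood apart from the rest of its group in 24 groups of DHT or vehicle values looked at for the 10 genes, KLK3 and KDM1A. The rule set the gap between an extreme array and its neighbour against the range of the group. With so few arrays per group it flags only a very large gap, and the siRNA arrays were not looked at in this way.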

How the results depend on the processing

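The alternatives were averaging a gene's probe sets, each other probe set, bright genes only, quantile normalization, median centring, eBayes with trend and robust, all 20 arrays in 1 fit, the replicate block, and leaving out each array. In C42B 4 of the 10 genes passed, 2 when probe sets were averaged and 3 to 5 without single arrays. In LNCaP 6 passed, 8 when probe sets were averaged and 5 without any one array. The difference between the lines passed for SYTL2 in 18 of 19 alternatives, and when probe sets were averaged 0 of the 10 passed in limma (SYTL2 at 0.17, adjusted p = 0.16), with 2 of the 10 at an unadjusted p under 0.05. With DHT 7 or 8 of the 10 genes had separate arrays under each alternative.

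SYTL2, RAB3B, SYTL1 in LNCaP and RAB3D in LNCaP kept their calls in all 13 alternatives other than single probe sets. With the replicate block 3 of the 10 passed in C42B and 5 in LNCaP, since RAB3D (limma adjusted p = 0.053) and MLPH (limma adjusted p = 0.073) no longer passed, and it changed no other call of the 10. VAMP8 in LNCaP passed in 5 of 13 alternatives, at limma adjusted p = 0.0043 to 0.17.

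The sign of RAB27A in C42B turned when probe sets were averaged (0.11) and at 3 of its other probe sets (0.26, 0.26 and 0.42). In LNCaP, where RAB27A stood near 0, it lay between −0.012 and 0.056 without single arrays, and passed at 0.27 (limma adjusted p = 0.0062) when probe sets were averaged, as SYTL4 did at 0.22 (limma adjusted p = 0.041). RAB3D turned at its dimmer probe set in C42B (−0.082), RAB27B at its dim ones in LNCaP (−0.14 and −0.083), SYTL5 at its other probe set in LNCaP (−0.053), SYTL4 with DHT at its next brightest (0.086), and the SYTL2 difference between the lines at its dimmest probe set (−0.17). The cause was not tested. Over all genes, calls in C42B numbered 3569 with all arrays. They numbered 3962, 2111 and 1907 without siLSD1 replicate 1, 2 and 3, and 2411, 2341 and 2326 without siNTC replicate 1, 2 and 3.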
